A study of Mus musculus with 8 samples.

Results

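The expression of collagen genes was examined in 8 RNA-seq libraries of mouse embryonic fibroblasts (MEFs), connective tissue cells cultured from embryos. Rows of the expression table were taken where the symbol was Col, a type number, the letter a and a chain number, and where the value was above 0 in at least 4 of the 8 samples. This rule gave 42 collagen genes among 49492 rows. There were 44 such symbols in all, of which Col9a1 was listed at 0 in every sample and Col9a2 was above 0 in 3 samples. At the limit of the rule, Col13a1 and Col22a1 were above 0 in exactly 4 samples, with values no higher than 0.165. By the protein they encode, the 42 genes fall into 11 fibrillar, 8 basement membrane and 23 other collagens.

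The 4 groups had 2 samples each. WT cells expressed Flag-tagged wild-type Pontin and RA cells a Flag-tagged form with alanine in place of 2 arginines, and each was grown in normal medium or without glucose. Both were stable lines of Pontin f/f MEFs, made with a lentivirus and hygromycin selection, and endogenous Pontin had been deleted with a Cre virus in all of them, so that none of the groups had unmodified cells. Since each form of Pontin was carried by 1 stable line, the line and the form of Pontin cannot be told apart. Normal medium was DMEM with fetal bovine serum, and the starvation medium was glucose-free DMEM with dialyzed serum. The sources do not say whether replicates were separate cultures, so the p-values measure only the spread between these samples, nor do they give the hours of starvation for these libraries.

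Collagens are proteins of the extracellular matrix in which 3 chains wind into a triple helix, and each chain is encoded by its own gene. Fibrillar collagens, such as types I, III and V, assemble into the cross-striated fibrils that give connective tissue its tensile strength, and fibroblasts are their main source. Type IV collagen forms the sheet-like network of basement membranes. The other collagens form beaded filaments, anchoring fibrils and hexagonal networks, decorate the surface of fibrils, or span the cell membrane.

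Between 43205841 and 56363034 reads were recovered per library. All values are CPM, read counts set to a common library size that the authors scaled. The smallest amount told from 0 was taken as 3 reads, which correspond to values of 0.0548 to 0.069. Of counts from 1 to 9, 78.2% to 80.5% were even, so reads may often have been counted in pairs. A count of 3 reads may then be fewer than 3 separate fragments. Ruvbl1, which encodes Pontin, stood at 28.0 ± 0.58 (SD, n = 2) in WT and at 34.4 ± 3.4 in RA in normal medium, and at 28.2 ± 0.38 and 44.0 ± 1.5 under starvation. The added copies carry the same gene, so this level does not check the genotype labels. Of 7 fibroblast markers, 6 reached a value of 1, with Lum at most 0.363. Their summed value was 4457 to 4597 in WT and 4649 to 4977 in RA in normal medium, and 2659 to 2760 and 2591 to 2609 under starvation. Krt5 and Krt14 of epithelium and Myod1 and Myog of skeletal muscle were at 0 in all 8 samples, and Pecam1 and Cdh5 of endothelium stayed under 0.5. Other genes of these lists were detected, with highest values of 1.175 for Cdh1, 4.58 for Acta1, 6.54 for Kdr and 3.06 for Tek. Of 5 immune markers, 2 reached a value of 1, namely Csf1r at 10.4 to 20.1 and Cd68 at 1.93 to 4.505. The sum of the list was 12.9 to 24.4, and Cd3e was at 0 in all samples. In bulk RNA, fewer cells of a type and less RNA per cell cannot be told apart.

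Glucose starvation was accompanied by less fibrillar collagen mRNA in both lines, to different extents, while the sum of the basement membrane class differed by less. The summed value of the fibrillar genes was 5211 and 5218 in the 2 WT samples in normal medium, and 914 and 887 in the starved ones, which was 5.79-fold lower. In RA, the sum was 4925 in both samples in normal medium and 2270 and 2265 under starvation, 2.17-fold lower. For the basement membrane genes, the sum was 1305 and 1259 in WT in normal medium and 1217 and 1148 under starvation, so that 92.2% was kept. RA gave 1267 and 1235, then 1389 and 1396, or 111% of the level in normal medium. The other collagens summed to 1012 and 986 in WT and to 335 and 314 in starved WT, 3.08-fold lower, against 909 and 889, then 713 and 729 in RA, 1.25-fold lower. These sums describe the samples and were not tested, since genes of a class are not replicates.

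**Figure D1:**
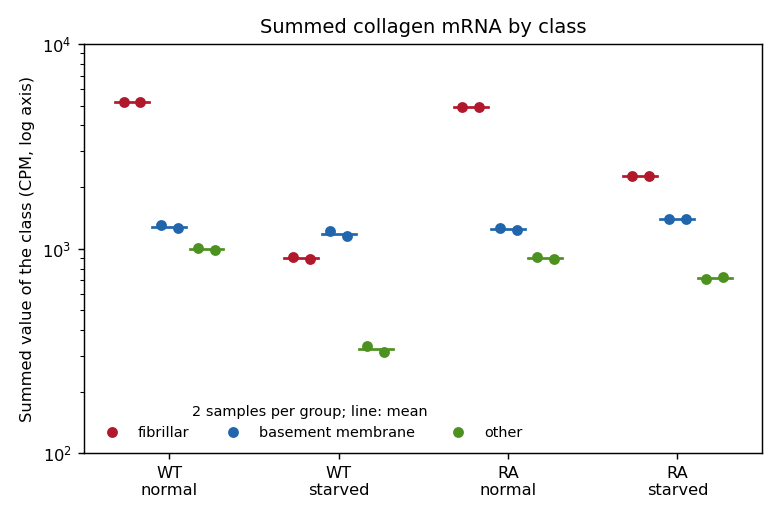
Summed values of 3 collagen classes (CPM, log axis) in the 2 samples of each group (points) with their mean (line). Fibrillar genes (red) were at 887 to 914 in starved WT, under the basement membrane genes (blue) at 1148 to 1217, whereas in starved RA they were at 2265 to 2270, above the basement membrane genes at 1389 to 1396.

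The makeup of collagen mRNA was thereby inverted in starved WT cells. Fibrillar genes held 69.2% and 69.9% of the summed collagen value in WT in normal medium and 37.1% and 37.8% under starvation. The basement membrane share was 17.3% and 16.9% in normal medium and 49.3% and 48.9% under starvation. In RA the fibrillar share was 69.4% and 69.9%, then 51.9% and 51.6%, and so stayed above the basement membrane share of 31.8% in both starved samples. The 42 genes together took 0.779% and 0.765% of all counted reads in WT in normal medium and 0.243% and 0.228% under starvation. In RA these shares were 0.715% and 0.695%, then 0.435% and 0.437%. The fibroblast marker sum given above was also lower in the starved samples of both lines, with Vim, an intermediate filament gene, at 3135 and 3242 in WT in normal medium and 2098 and 2197 under starvation, and their part in the result was not tested. S100a4, also of this list, was at 898 and 923, then 250.5 and 257 in WT, and at 924 and 941, then 320 and 316 in RA. Not all of the list was lower, since Thy1 was at 274 and 282, then 283 and 280 in RA, against 250.4 and 258, then 185 and 186 in WT, and Dcn rose in both lines. Pdgfra, a growth factor receptor of fibroblasts on the same list, was at 21.1 and 20.5, then 2.43 and 2.23 in WT, and at 18.2 and 17.3, then 5.88 and 5.70 in RA.

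Divided by transcript length, the order of the genes changed as well. In WT in normal medium, the highest levels per kilobase were those of Col1a2 at 393, Col1a1 at 285 and Col4a1 at 106. In starved WT the order was Col4a1 at 89.8, Col4a2 at 74.3 and Col1a2 at 50.7. Starved RA kept the 3 highest genes of normal medium, with Col1a2 at 170, Col1a1 at 108 and Col4a1 at 105, though Col3a1 went from rank 7 to rank 15 in RA.

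For tests, genes had to reach a value of 1 in 2 or more samples, which 26 of the 42 passed: 10 fibrillar, 6 basement membrane and 10 other genes. Col14a1 reached 1 only in starved WT, Col4a4 only in starved samples and Col2a1 only in normal medium. These genes passed the filter only through groups where they were high, so their calls in the counts below lend no support of their own. Differences were tested with limma on log2(value + 1) across 16232 genes, and calls were made at an adjusted p-value under 0.05. The added 1 makes log2 differences of low genes too small. Under starvation all 26 tested collagen genes were called in WT, 6 higher and 20 lower, where 78.6% of all tested genes were called, 39.3% higher and 39.2% lower. Of the 20 that fell, 15 did so by at least 2-fold on this scale, beside 11.7% of all genes. In RA, 19 were called, 5 higher and 14 lower, beside 68.7% of all genes (35.0% higher, 33.7% lower), and 5 fell by at least 2-fold, beside 4.58% of all genes. Over the 26 genes the median log2 change was -1.35 (WT) and -0.186 (RA), where that over all tested genes was 0.00488 and 0.0127. The difference between the responses, RA minus WT, was called in 22 genes, 20 of them positive and 2 negative, beside 50.6% of all genes (24.5% positive, 26.1% negative). Its median was 0.863 over the collagen genes and -0.0107 over all genes.

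**Figure D2:**
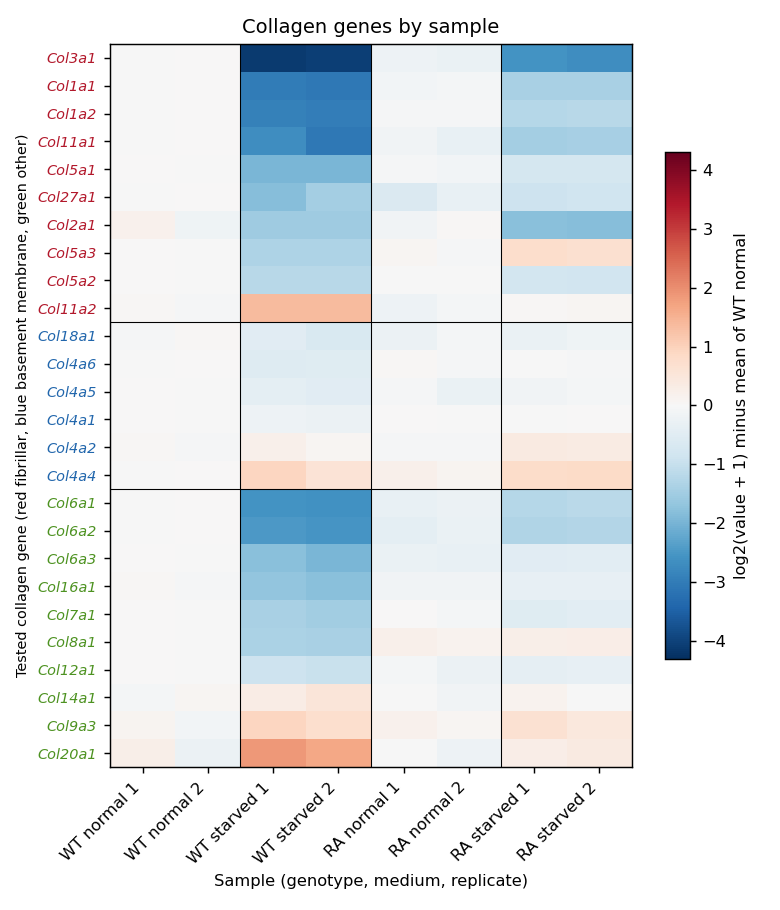
log2(value + 1) of each of the 26 tested collagen genes in the 8 samples, less the mean of WT in normal medium (blue lower, red higher), with genes ordered by class. Starved WT samples are the most strongly blue, down to Col3a1 with a mean log2 change of -4.09, and the basement membrane genes, in the middle block, are pale in all samples.

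Of the 20 genes that fell in starved WT, 19 fell less or rose in RA by the test of the difference. A positive difference was called in 24.5% of all genes. These 20 were chosen by their fall in WT, and the same WT values enter the difference, which favours a smaller change in RA. The share among all genes that fell in WT was not counted. Among these 20, 14 also fell in RA, Col5a3 rose, and 5 were not called. Their log2 changes had a median of -1.6 in WT and -0.423 in RA. The exception to the smaller change was Col2a1, described below.

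Type I collagen, the main protein of skin, bone and tendon fibrils, is built from the products of Col1a1 and Col1a2. The 250 bases before the start of 4 genes are shown because these genes went different ways: Col1a2 is the most abundant per kilobase in normal medium, Col3a1 fell most by log2 change, Col11a2 rose in starved WT, and Col4a5 of the basement membrane changed less. They are RefSeq sequences of GRCm38.p6, a later build than the mm9 of the files, printed on the gene's strand. Capitals mark the letters CCAAT, as in a CCAAT box, and TATAAA, as in a TATA box, where found on either strand. Whether a match works as such a box was not tested.
Col1a2 (chr6:4505368-4505617, plus strand): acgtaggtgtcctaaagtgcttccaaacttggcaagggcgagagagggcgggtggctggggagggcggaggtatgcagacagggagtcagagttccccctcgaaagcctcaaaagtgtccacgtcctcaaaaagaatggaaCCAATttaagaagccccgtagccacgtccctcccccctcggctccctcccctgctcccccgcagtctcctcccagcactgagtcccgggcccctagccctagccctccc
Col3a1 (chr1:45311288-45311537, plus strand): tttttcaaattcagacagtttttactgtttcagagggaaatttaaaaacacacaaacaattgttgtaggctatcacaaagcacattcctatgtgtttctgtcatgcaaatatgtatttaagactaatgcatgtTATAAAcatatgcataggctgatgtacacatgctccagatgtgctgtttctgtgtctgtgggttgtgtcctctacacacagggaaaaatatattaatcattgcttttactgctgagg
Col11a2 (chr17:34038888-34039137, plus strand): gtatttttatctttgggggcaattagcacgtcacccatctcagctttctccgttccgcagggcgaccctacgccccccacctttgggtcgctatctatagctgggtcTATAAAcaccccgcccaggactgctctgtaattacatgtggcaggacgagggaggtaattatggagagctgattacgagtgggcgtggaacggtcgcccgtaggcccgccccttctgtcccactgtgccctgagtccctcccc
Col4a5 (chrX:141475169-141475418, plus strand): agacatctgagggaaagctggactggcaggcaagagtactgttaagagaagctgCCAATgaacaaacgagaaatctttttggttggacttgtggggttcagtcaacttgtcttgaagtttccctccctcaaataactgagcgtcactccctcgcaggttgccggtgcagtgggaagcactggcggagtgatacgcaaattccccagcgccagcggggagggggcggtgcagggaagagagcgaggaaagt

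Windows of this kind were found for 33 of the 42 genes, some with more than 1 start, giving 35. CCAAT stood in 12 of 35 or 34.3%, against 33.8% of all 32851 windows, and TATAAA in 5 or 14.3% against 12.4%. GGGCGG, the GC box, stood in 21 or 60% against 32.7%, with median GC contents of 59.2% and 52.4%. CAGACA, the SMAD element, stood in 8 or 22.9% against 17.1%, and TGATGNAA in none against 3.45%. All motifs were searched on both strands. In Col1a2 the CCAAT begins 109 bases before the start, and in Col4a5 196 bases before it. The TATAAA of Col3a1 begins 117 bases and that of Col11a2 143 bases before the start. These matches describe letters only.

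Col1a2 had the highest level per kilobase among the collagen genes in 3 of the 4 groups and stood behind Col4a1 and Col4a2 in starved WT. Its value was 2097 and 2106 in WT in normal medium, 278 and 264 in WT under starvation, 2018 and 2026 in RA in normal medium, and 908 and 912 in RA under starvation. It was thus high in all 4 samples in normal medium, lowest in starved WT and between these in starved RA, with no overlap. The fall on the log2 scale was 2.95 ± 0.04 (SE) in WT and 1.15 ± 0.04 in RA, with a difference of 1.80 ± 0.06 (adjusted p = 1.06e-13).

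Its partner Col1a1 had 1679 and 1697 in WT in normal medium, 211 and 198 in WT without glucose, 1555 and 1585 in RA in normal medium, and 637 and 642 in starved RA. The changes of -3.04 in WT and -1.29 in RA followed those of Col1a2, and the difference was 1.75 ± 0.06 (adjusted p = 1.60e-13). Starved RA held 3.13-fold more Col1a1 and 3.36-fold more Col1a2 than starved WT.

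Col3a1, whose homotrimers share fibrils with type I collagen in elastic tissues, gave the most negative change of the 26 tested genes in both lines on the log2(value + 1) scale, although by mean values the scarcer Col2a1 fell further in RA. It went from 283 and 286 to 15.3 and 16.3 in WT, which was 18.0-fold, and from 245 and 233 to 46.9 and 43.3 in RA, which was 5.30-fold. The log2 changes were -4.09 ± 0.05 and -2.38 ± 0.05, and their difference was 1.70 ± 0.07 (adjusted p = 2.56e-12). Even so, starved RA was below every sample in normal medium by a wide margin. In normal medium Col3a1 was already lower in RA, by 0.25 on the log2 scale (adjusted p = 0.0031), a call that was lost in a fit with no trend.

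Type V collagen, which copolymerizes with type I and limits fibril diameter, split by chain. Col5a1 was at 520 and 499 in WT, 131 and 130 in starved WT, 490 and 468 in RA, and 298 and 300 in starved RA. Its log2 changes were -1.96 in WT and -0.68 in RA. Col5a2 was at 584 in both WT samples, 254 in both starved WT samples, 574 and 572 in RA, and 340 and 327 in starved RA. It changed by -1.20 in WT and by -0.78 in RA, so that the difference of 0.42 ± 0.05 was the smallest among the fibrillar genes with a called difference.

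Col5a3, the less common chain of type V, went opposite ways in the lines. Values were 14.6 and 14.3 in WT, 5.11 and 5.19 in starved WT, 15.2 and 14.0 in RA, and 24.9 and 24.1 in starved RA. It fell by 1.33 on the log2 scale in WT and rose by 0.71 in RA (adjusted p = 6.49e-07), and the difference of 2.04 ± 0.11 (adjusted p = 2.83e-10) was the largest of the 26 genes. Starved RA held 4.75-fold more than starved WT.

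The minor fibrillar genes are better known from cartilage. Col11a1, whose chain nucleates cartilage fibrils, fell from 16.8 and 17.3 to 1.80 and 1.13 in WT and from 15.3 and 13.5 to 5.52 and 5.74 in RA, log2 changes of -2.88 and -1.21. Col27a1 had 5.35 and 5.52, then 0.796 and 1.32 in WT, and 3.22 and 4.15, then 2.51 and 2.56 in RA, with a difference between responses of 1.26 ± 0.20. Col2a1, the main cartilage collagen, had means of 4.61 ± 0.99 and 0.918 ± 0.0060 in WT, and of 4.40 ± 0.57 and 0.583 ± 0.0067 in RA, before and after starvation. Col2a1 passed the filter only through the samples in normal medium. Its fall was 5.02-fold in WT and 7.55-fold in RA, and the difference of -0.23 (95% interval -0.65 to 0.19, adjusted p = 0.357) did not pass. Acan, the defining proteoglycan of cartilage, was no higher than 0.0403 in any sample, and Sox9 was at 18.1 to 22.4 in normal medium and 8.51 to 10.3 under starvation in both lines. Other genes of the 5 cartilage markers went the other way, with Hapln1 at 2.35 and 1.98, then 2.43 and 2.45 in WT and at 2.76 and 1.86, then 3.80 and 3.10 in RA, and Comp at 0.138 to 0.443 in normal medium and 0.496 to 0.823 under starvation. Their part in the result was not tested.

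Col11a2 was the fibrillar gene that rose in starved WT. It stood at 5.59 and 5.20 in WT, 15.5 and 15.6 in starved WT, 4.46 and 4.96 in RA, and 5.56 and 5.82 in starved RA. The rise of 1.37 ± 0.10 in WT compares with 0.23 ± 0.10 in RA, which did not pass (adjusted p = 0.0528, but passed at 0.29 without replicate 2 of RA in normal medium), and the difference was -1.14 ± 0.14 (adjusted p = 5.20e-06). The starved WT samples thus stood alone above the other 6. Of 5 endothelial markers 2 reached a value of 1, and their sum was 2.52 to 3.39 and 8.92 to 9.43 in WT and 2.05 to 3.42 and 5.99 to 6.34 in RA, with Cdh5 and Pecam1 near 0, and their part in the result was not tested.

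**Figure D3:**
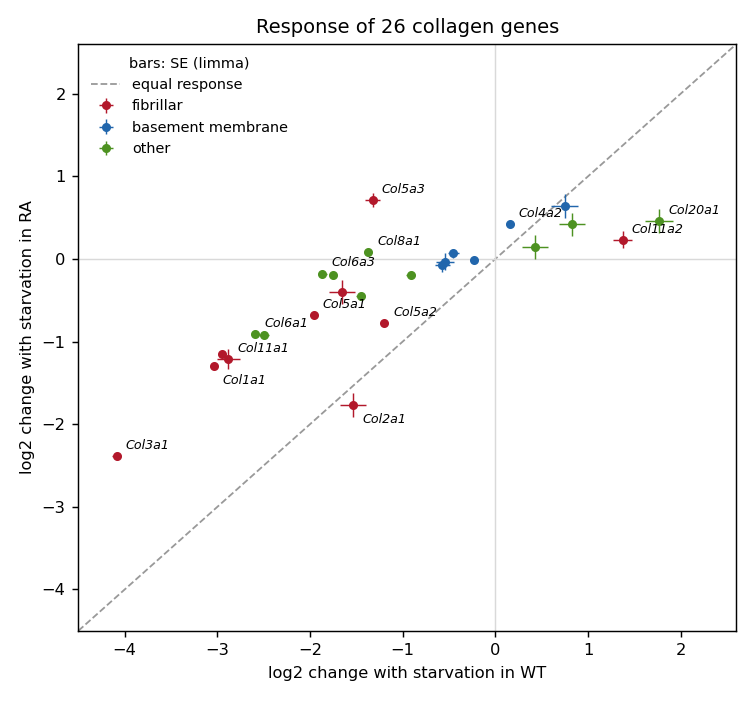
log2 change with starvation in WT (x axis) and in RA (y axis) for the 26 tested collagen genes, with SE bars from limma and the line of equal response (dashed). Genes that fell in WT lie above the line apart from Col2a1, and Col5a3 lies in the quadrant of a fall in WT and a rise in RA. Among genes that rose in WT, Col4a2 lies above the line and the others below it, furthest for Col11a2 and Col20a1.

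The tested basement membrane genes other than Col4a4 changed by less than 2-fold. Mean values in starved WT were 1.55-fold lower for Col4a6, 1.52-fold for Col18a1, 1.37-fold for Col4a5 and 1.18-fold for Col4a1. The class sum is mainly that of Col4a1 and Col4a2, with means of 700 and 431 of 1282 in WT in normal medium. Of 6 tested, 4 fell and 2 rose in starved WT, beside 39.2% and 39.3% of all genes. Their median log2 change was -0.345, with none at 2-fold on the log2(value + 1) scale. The scarce Col4a4 is held under 2-fold by the added 1, as its mean values rose 5.58-fold in WT and 3.27-fold in RA. In RA 2 rose, none fell and 4 were not called, with a median of 0.0284. Over all genes 68.7% were called in RA, 35.0% higher and 33.7% lower. The fibrillar medians were -1.81 and -0.965, and those of the other collagens -1.41 and -0.186.

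Col4a1 and Col4a2 encode the chains of the common type IV network and are head-to-head neighbours in GRCm38, with starts that overlap. Col4a1 was at 708 and 691 in WT, 607 and 581 in starved WT, 710 and 693 in RA, and 691 and 702 in starved RA. It fell by 0.24 ± 0.04 on the log2 scale in WT, and the change in RA of -0.01 had an interval of -0.09 to 0.07. Col4a2 was at 443 and 419, then 498 and 461 in WT, and at 414 in both samples, then 560 and 552 in RA. Its rise was 0.15 ± 0.04 in WT and 0.42 ± 0.04 in RA. The call in WT was lost when values were set to the plain column total (0.08), without replicate 2 of WT in normal medium (0.11) and without replicate 1 of starved WT (0.10).

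Col4a5 and Col4a6, a second head-to-head pair on the X chromosome, encode chains of specialized basement membranes. Col4a5 was at 125 and 120, then 91.0 and 87.4 in WT, and at 117 and 99.9, then 111 and 115 in RA. In WT it fell by 0.45 ± 0.06 on the log2 scale, and the value in RA was 0.07 ± 0.06, where the groups overlapped, and 0.18 and called without replicate 1 of RA in normal medium. Col4a6 fell by 0.54 in WT, from 7.65 to 4.94 on average, and stood at 7.60 and 7.40 in RA. Col18a1, whose C-terminal fragment is endostatin, had 20.1 and 21.3, then 14.4 and 12.9 in WT, and 17.4 and 19.4, then 16.9 and 17.9 in RA. It fell by 0.57 in WT and was not called in RA, and the differences between responses of these 3 genes were 0.52, 0.51 and 0.49.

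Col4a4, a chain of the glomerular basement membrane, was scarce and rose in both lines. It had 0.174 and 0.181, then 1.22 and 0.767 in WT, and 0.368 and 0.271, then 1.02 and 1.07 in RA. These correspond to 8 to 58 reads. Col4a4 passed the filter only through starved samples, where it was higher. The log2 changes of 0.75 and 0.63 differed by -0.11 (95% interval -0.55 to 0.32, adjusted p = 0.669).

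Among the other collagens, Col6a1 and Col6a2 of the beaded filament type VI had the most negative log2 changes in both lines. Col6a1 was at 202 and 203 in WT, 33.1 and 32.3 in starved WT, 162 and 171 in RA, and 86.3 and 90.2 in starved RA. Col6a2, its neighbour on the same strand, was at 83.2 and 84.4, then 14.3 and 13.7 in WT, and at 63.0 and 68.6, then 33.9 and 34.6 in RA. Both fell about equally, with log2 changes of -2.59 and -2.50 in WT, then -0.91 and -0.92 in RA. Col6a3, the longest chain, was at 171 and 165, then 48.0 and 42.6 in WT, and at 138 and 133, then 119 and 121 in RA. It fell by 1.87 in WT but by 0.18 in RA, a difference of 1.69 ± 0.07 (adjusted p = 5.29e-12).

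Col8a1, a short-chain collagen of hexagonal networks, showed no called change in RA. Values were 139 and 134 in WT, 52.7 and 51.2 in starved WT, 158 and 152 in RA, and 161 and 166 in starved RA. It fell by 1.38 ± 0.04 in WT, and the log2 change in RA was 0.08 (95% interval -0.01 to 0.17). Col16a1, of the group that binds to fibril surfaces (FACIT), was at 141 and 132, then 41.4 and 38.1 in WT, and at 122 and 123, then 107 and 106 in RA. Its changes of -1.75 and -0.20 were both called. Col7a1, which makes anchoring fibrils, fell by 1.45 in WT and 0.45 in RA, and Col12a1, another FACIT, by 0.91 and 0.19. Mean values of Col7a1 were 118 and 42.6 in WT and 116 and 84.6 in RA, and those of Col12a1 were 146 and 76.9 in WT and 130 and 113 in RA.

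The other collagens that rose in starved WT were FACIT genes at low level. Col20a1 was at 4.11 and 2.62, then 14.7 and 12.6 in WT, and at 3.29 and 2.65, then 4.29 and 4.60 in RA. It rose by 1.77 ± 0.15 in WT and by 0.46 ± 0.15 in RA, a difference of -1.30 ± 0.21 (adjusted p = 6.66e-05). The call in RA was lost without replicate 2 of RA in normal medium (0.34) or of starved RA (0.42) and with no filter. Col9a3, a chain of the type IX collagen of cartilage, rose by 0.83 in WT and 0.42 in RA, from mean values of 1.31 and 1.53 to 3.10 and 2.40, where the call in RA was lost without replicate 2 of RA in normal medium (0.36), without replicate 1 of starved RA (0.31) and with no filter. Col14a1 rose by 0.43 in WT, from a mean of 0.749 to 1.35, and passed the filter only through starved WT. This call was lost without replicate 1 of WT in normal medium (0.35) and without replicate 2 of starved WT (0.32). Among the tested genes, small exon overlaps in GRCm38 touch Col3a1, Col4a1, Col4a2, Col5a1, Col7a1, Col9a3 and Col20a1, and with the handling of strand not stated, reads of the partners cannot be told apart there.

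Neighbouring genes and chains of 1 protein did not always move together. The ratio of Col1a1 to Col1a2 values was 0.803 in WT and 0.777 in RA in normal medium and 0.754 and 0.703 under starvation. That of Col4a1 to Col4a2 was 1.62 ± 0.034 and 1.69 ± 0.028, then 1.24 ± 0.028 and 1.25 ± 0.028, with similar drops in both lines. The ratio of Col3a1 to Col1a1 was lower in both as well, at 0.168 and 0.0774 in WT and 0.152 and 0.0705 in RA before and after starvation. Col6a1 to Col6a2 had group means of 2.34 to 2.58. The widest gap between the lines among these 5 ratios was that of Col5a1 to Col5a2, where 0.873 became 0.513 in WT and 0.836 became 0.898 in RA, log2 changes of -0.77 ± 0.04 (SD) and 0.10 ± 0.06. Col5a2 is a tail-to-tail neighbour of Col3a1 in GRCm38, and these fell by 1.20 and 4.09 on the log2 scale in WT. Ratios within a library do not depend on its scaling. With 2 samples a group no test was made of them.

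**Figure D4:**
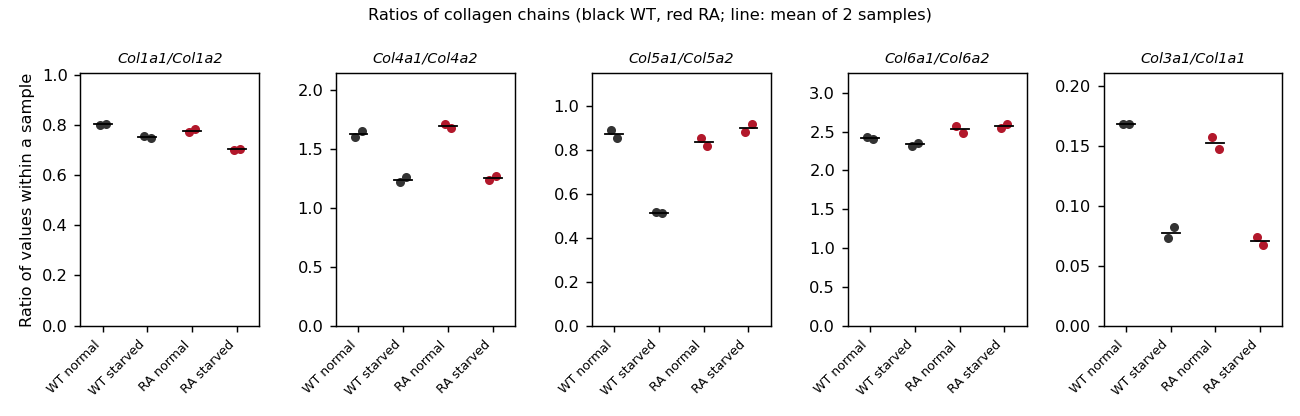
Ratios of the values of 5 pairs of collagen genes within each sample (points; black WT, red RA) with group means (lines), not corrected for length. Col5a1/Col5a2 is low only in starved WT among the 4 groups (mean 0.513), whereas Col4a1/Col4a2 and Col3a1/Col1a1 are lower in both starved groups.

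Next, RA was compared with WT in the same medium. In normal medium 7 of the 26 genes were called, 1 higher and 6 lower in RA, where 9.63% of all genes were called, 6.68% higher and 2.95% lower. All 3 type VI genes were lower, Col6a1 by 0.28, Col6a2 by 0.35 and Col6a3 by 0.30 on the log2 scale. Col3a1 was lower by 0.25, Col12a1 by 0.17 and Col27a1 by 0.47, and Col8a1 was higher by 0.18. None of the 7 differed by 2-fold. In a fit with no trend the calls of Col3a1, Col6a3, Col8a1, Col12a1 and Col27a1 were lost. The call of Col12a1 was lost in 5 of the 8 fits that leave out 1 sample, namely either WT sample in normal medium, replicate 2 of RA in normal medium or either starved RA sample (values from -0.19 to -0.09). That of Col27a1 was lost in 5 as well, namely either WT sample in normal medium, replicate 1 of RA in normal medium or either starved RA sample (-0.49 to -0.32), and in edgeR and DESeq2. With values set to the plain column total, 10 genes were called and all were lower. That scaling also moved all genes, with 683 of 16217 called higher, 1007 lower and a median log2 difference of -0.0355. Col8a1 was then no longer among the calls (0.14), as also without replicate 2 of WT in normal medium (0.15). Without replicate 2 of WT in normal medium 4 genes were called.

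Under starvation 23 of the 26 genes were called between the lines, beside 62.9% of all genes. Of these, 20 were higher in RA, beside 30.8% of all genes, and 3 were lower, beside 32.1%. The 3 lower genes were Col20a1 by 1.43, Col11a2 by 1.31 and Col14a1 by 0.36 on the log2 scale. The call of Col14a1 was lost in edgeR and DESeq2 and without replicate 2 of starved WT (-0.25). It was also lost without replicate 1 (-0.43) or 2 (-0.29) of starved RA. Col14a1 passed the filter only through starved WT. The higher genes ranged from 0.21 for Col4a2 to 2.05 for Col5a3. Medians by class were 1.32 for fibrillar, 0.281 for basement membrane and 1.1 for other collagens, and that over all genes was -0.00806. This comparison shares its starved samples with the responses above and is not a further set of data. The summed smooth muscle markers, mainly Acta2, were at 1488 to 1544 in starved WT and 3977 to 4116 in starved RA, against 1707 to 1741 and 1840 to 1982 in normal medium, with all 3 of the list reaching a value of 1 and none at 0, and their part in the result was not tested.

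The 16 collagen genes that were not tested had values of 0 to 1.61 and at most 77 reads in a library. They were Col15a1 and Col4a3 of the basement membrane class, the fibrillar Col24a1 and 13 others. Col23a1, a transmembrane collagen, came nearest to the filter, at 1.61 and 0.987 in starved WT against 0.155 to 0.372 in the other 6 samples. Col13a1, another transmembrane collagen, was at 0 in all 4 RA samples, and in WT its values of 0.0365 to 0.161 were 2 to 8 reads, close to what a count of 0 allows. Differences among these genes were not detectable at this depth or were left untested by the filter.

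The mRNAs of proteins that serve collagen production, binding and regulation were then compared, from 5 lists of 64 genes, of which 59 passed the filter. Of these, 50 were called in starved WT (16 higher, 34 lower), 43 in RA (16 higher, 27 lower) and 47 for the difference between the responses (32 positive, 15 negative). Medians were -0.306, -0.0929 and 0.313. These shares of 84.7%, 72.9% and 79.7% stand beside the 78.6%, 68.7% and 50.6% over all genes.

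The enzymes and chaperones that modify and fold chains went both ways. Of 18 tested, 6 rose and 7 fell in starved WT, beside 39.3% and 39.2% of all genes, and 5 rose and 9 fell in RA, beside 35.0% and 33.7%. P4ha1, a catalytic subunit of prolyl 4-hydroxylase, which stabilizes the triple helix, rose from 157 and 155 to 351 and 346 in WT and from 150 in both samples to 217 in both in RA. The log2 changes were 1.15 and 0.53. Its relative P4ha2 rose by 0.88 and 0.51, whereas P4ha3 fell by 1.62 and 0.34. P4hb, their shared subunit and a disulfide isomerase, rose from 873 and 861 to 1232 and 1236 in WT and fell from 848 and 876 to 694 and 686 in RA, a difference of -0.83 ± 0.05 (adjusted p = 1.92e-09).

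Serpinh1, the collagen chaperone HSP47, fell from 1010 and 1015 to 698 in both samples in WT and from 987 and 1033 to 819 and 802 in RA, by 0.54 and 0.32 on the log2 scale. Fkbp10, a prolyl isomerase of the endoplasmic reticulum, fell by 1.35 and 0.98, and P3h4 by 1.17 and 0.67. P3h3 rose in RA only by the calls, by 0.51 against a log2 difference of -0.05 in WT, and the difference of 0.56 passed. Tmem38b, an ion channel of the endoplasmic reticulum, rose by 1.29 and 0.80. Plod2, the hydroxylase of telopeptide lysines, was at 31.9, 33.4, 29.2 and 27.3 in WT, starved WT, RA and starved RA, with no called change under starvation in either line, while RA was lower than WT by 0.28 on the log2 scale under starvation (adjusted p = 0.000551).

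Among 15 genes of export, trimming and cross-linking, 3 rose and 11 fell in starved WT, beside 39.3% and 39.2% of all genes. In RA 3 rose and 9 fell, beside 35.0% and 33.7%. Lox, the oxidase that starts cross-linking, fell from 522 and 519 to 294 and 289 in WT, while RA had 523 and 522, then 548 and 555. The change was -0.83 in WT and 0.08 in RA (adjusted p = 0.0596), a difference of 0.91 ± 0.05. Loxl2 fell by 2.58 in WT, from 353 and 358 to 58.0 and 59.5, and by 0.95 in RA, from 369 and 358 to 185 and 191. Loxl1 fell by 1.35 and 0.98, and Loxl4 by 1.16 and 0.21.

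Adamts2 and Adamts14 cut the N-propeptide from procollagen. Adamts14 fell by 1.89 in WT and 0.93 in RA, and Adamts2 by 1.16 in WT, with -0.15 in RA (adjusted p = 0.188). Pcolce2, an enhancer of C-propeptide cutting, went further down in RA, by 1.67 against 0.53, a difference of -1.15. Mia2 and Mia3, which load procollagen into transport carriers, rose in both lines, with a difference of 0.0063 between the lines for Mia2 (1.01 in RA) and rises of 0.66 and 0.28 for Mia3. Tll1, a procollagen C-proteinase, rose by 0.42 and 0.90.

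Of 8 fibril partners, 2 rose and 5 fell in starved WT, beside 39.3% and 39.2% of all genes. In RA 3 rose and 4 fell, beside 35.0% and 33.7%. Sparc, a collagen-binding matrix protein, fell by 1.63 in WT and 0.59 in RA. Thbs2 fell by 0.82 in WT and rose by 0.41 in RA, with means of 148 and 83.4 in WT and 172 and 230 in RA. Dcn, the proteoglycan decorin, rose by 0.30 in WT, from a mean of 5.90 to 7.44, and more in RA, from 13.5 to 34.9. Fn1, fibronectin, was called in RA, where it rose by 0.42, against 0.03 in WT, a difference of 0.39. Postn fell by 0.30 and 0.62, Tnxb by 1.29 and 0.39, and Bgn rose by 0.18 in WT.

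The receptor list had 1 rise and 4 falls in WT and 3 rises in RA among 7 genes. Over all genes, 39.3% rose and 39.2% fell in WT, and 35.0% and 33.7% in RA. Itga11, a fibroblast integrin chain that binds type I collagen, fell from 6.57 and 5.60 to 2.64 and 2.23 in WT and rose from 4.78 and 4.65 to 9.77 and 11.4 in RA, a difference of 2.06 ± 0.17 (adjusted p = 3.57e-08). The discoidin receptor Ddr2 rose by 0.72 and 0.57, and Ddr1 fell by 0.31 in WT and rose by 0.37 in RA. Mrc2, which takes up collagen for degradation, fell by 0.68 in WT, with 0.04 in RA (adjusted p = 0.331).

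Among 11 regulators of collagen transcription, 4 rose and 7 fell in starved WT, beside 39.3% and 39.2% of all genes. In RA 2 rose and 5 fell, beside 35.0% and 33.7%. Ctgf, a target of TGF-beta, fell by 2.003 in WT and 0.37 in RA. Ctgf was at 879 and 895, then 219 and 223 in WT, and at 1049 and 1119, then 842 and 833 in RA. The receptor gene Tgfbr2 fell by 1.18 and 0.64 and Smad3, which carries the signal, by 1.11 and 0.52. Smad7, an inhibitor of that pathway, rose by 1.17 and 0.59, and Tgfbr1 rose by 0.86 in WT, with 0.15 in RA (adjusted p = 0.0749). Sp1, which binds GC boxes, rose by 0.32 in WT, with -0.08 in RA (adjusted p = 0.138), and Cebpb rose by 1.58 and 1.47, with no called difference.

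**Figure D5:**
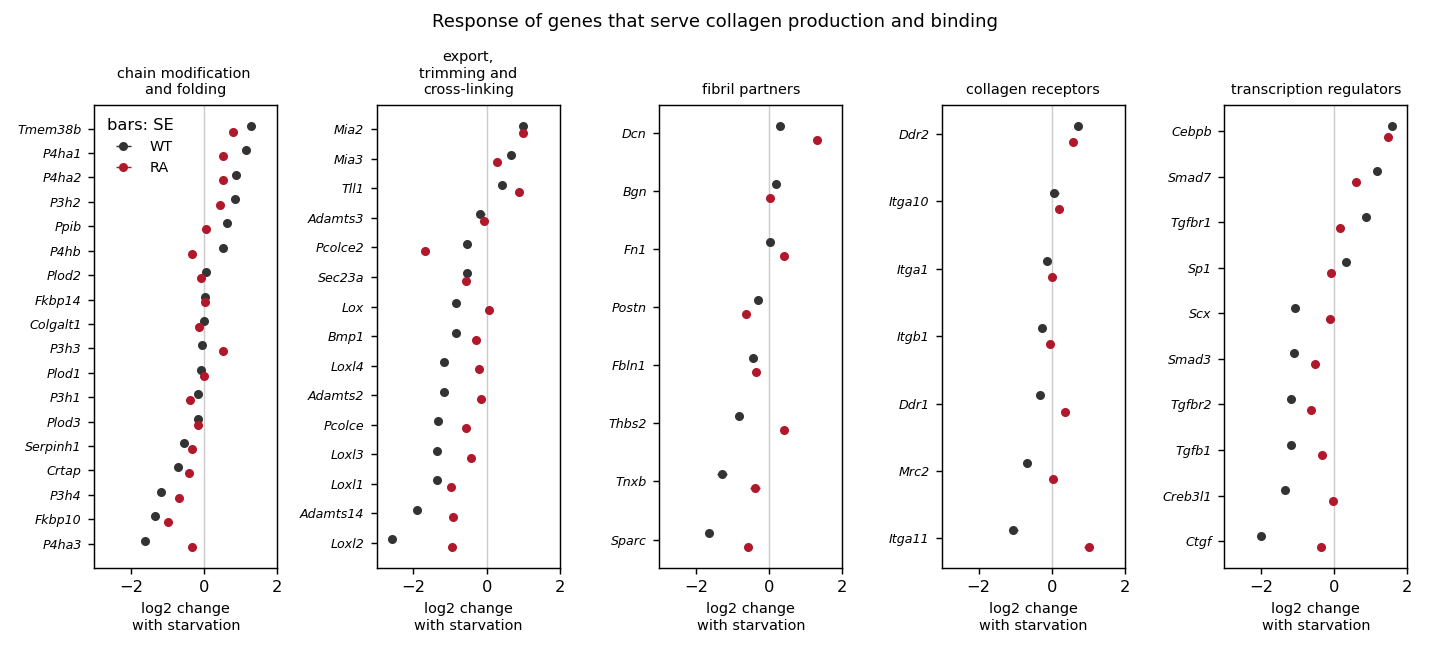
log2 change with starvation in WT (black) and RA (red), with SE bars from limma mostly hidden by the points, for 58 of the 59 tested genes of 5 lists that serve collagen production, binding and regulation. Chain modification genes lie on both sides of 0 in both lines, and Itga11, Ctgf and Loxl2 show the widest gaps, with differences of 2.06, 1.63 and 1.63.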

How the data were processed

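PolyA RNA of 8 MEF samples was sequenced by the authors from TruSeq v2 libraries on an Illumina HiSeq in paired-end mode, and reads were mapped with TopHat2 (version 2.0.9) to mm9; bedtools and edgeR are named in the submitters' processing notes. The counter, annotation, strand and filter are not given in the sources used here. The deposited table holds a signal, the CPM of a scaled library size per the authors, and its columns minus and plus were read as normal and starvation medium, as the study marks them. In each sample 100% of the values were whole reads (within 0.01 read), and 78.2% to 80.5% of counts from 1 to 9 were even. Groups followed the labels. CPM had been planned as the unit, and the same test was used.

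The 16232 genes that reached a value of 1 in 2 or more samples were fitted with limma (version 3.58.1, R 4.3.3) on log2(value + 1), with group means over 4 groups, eBayes with trend and Benjamini-Hochberg adjustment in each of 5 contrasts. Tests were 2-sided. The fit was also run on simulated counts in which 100 genes changed by 0.5 and 100 by 1 on the log2 scale, with 15664 genes tested. It recovered 83% and 94% of these, and 3.80% of the calls were false. Far fewer genes changed there than were called here under starvation, so this run does not check the calls reported here. Alternatives were pseudocounts of 0.1 and 0.5, other filters and scalings, no trend, fits of only the groups compared, a replicate block, a 2-fold minimum, each sample left out, and edgeR (4.0.16) and DESeq2 (1.42.0) on recovered reads. Transcript lengths are those of the transcript with the longest coding sequence in GENCODE M21 (GRCm38). Read floors cover counting error only.

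The members and lists were chosen with earlier results of these data known. Named collagen genes had a mean of at least 10, were among the 3 highest or 3 lowest called in a contrast, or share a trimer with these. Helper genes named were the 2 highest and 2 lowest called of each list in each contrast, with Serpinh1, P4ha1, P4ha2, Plod2 and Lox; 1 helper gene counted in its list is not reported here. Acan, Sox9, Vim, Acta2, Col23a1, Col13a1 and the other genes outside this rule were named after their values were seen.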

Additional observations from a re-analysis of the deposited data

Results flagged for a closer look

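The starvation response differed between WT and RA, by the limma test of the difference itself (adjusted p-value under 0.05), in 22 collagen genes and 35 of the named helper genes. Each value is the log2 change with starvation in RA minus that in WT, so that a positive value means a smaller fall or a larger rise in RA. Such differences were called in 50.6% of all tested genes. In the fibrillar class they were 1.67 for Col11a1, -1.14 for Col11a2, 1.75 for Col1a1, 1.80 for Col1a2, 1.26 for Col27a1, 1.70 for Col3a1, 1.28 for Col5a1, 0.42 for Col5a2 and 2.04 for Col5a3. In the basement membrane class they were 0.49 for Col18a1, 0.23 for Col4a1, 0.27 for Col4a2, 0.52 for Col4a5 and 0.51 for Col4a6. In the other collagens they were 0.72 for Col12a1, 1.55 for Col16a1, -1.30 for Col20a1, 1.69 for Col6a1, 1.58 for Col6a2, 1.69 for Col6a3, 1.01 for Col7a1 and 1.45 for Col8a1.

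Among genes of chain modification and folding, the values were 0.38 for Fkbp10, -0.23 for P3h1, 0.56 for P3h3, 0.50 for P3h4, -0.63 for P4ha1, -0.37 for P4ha2, 1.28 for P4ha3, -0.83 for P4hb, 0.22 for Serpinh1 and -0.49 for Tmem38b. For export, trimming and cross-linking they were 0.96 for Adamts14, 1.02 for Adamts2, 0.91 for Lox, 0.37 for Loxl1, 1.63 for Loxl2, 0.95 for Loxl4, -0.39 for Mia3, -1.15 for Pcolce2 and 0.48 for Tll1. Fibril partners gave 1.004 for Dcn, 0.39 for Fn1, -0.32 for Postn, 1.04 for Sparc, 1.23 for Thbs2 and 0.90 for Tnxb. Collagen receptors gave 0.67 for Ddr1, -0.15 for Ddr2, 2.06 for Itga11 and 0.72 for Mrc2, and transcription regulators 1.63 for Ctgf, 0.59 for Smad3, -0.59 for Smad7, -0.40 for Sp1, -0.71 for Tgfbr1 and 0.54 for Tgfbr2. Groups of 2 samples are too small for a check of single samples that stand apart.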

How the results depend on the processing

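No direction of a called value of the 26 tested collagen genes was reversed under any alternative run. For the helper genes only the numbers of calls were compared between runs, not the direction of each gene. For RA against WT in normal medium, collagen calls numbered 4 with no filter, 2 with no trend and 0 at a 2-fold minimum in limma, beside 7 at first, 7 in edgeR and 9 in DESeq2. Helper calls there were 5, 4 and 1, beside 10, and with the plain column total 5 were higher and 6 lower, against 7 and 3. Over all genes, calls there numbered 650 of 31407 with no filter, 590 of 16232 with no trend and 82 at a 2-fold minimum. They numbered 1563 at first, or 9.63%, and 1399 in DESeq2. With the plain column total 683 of all genes were higher and 1007 lower, against 1084 and 479. At a 2-fold minimum the collagen and helper calls were 13 and 12 for RA against WT under starvation, 17 and 24 for starvation in WT, 5 and 5 for starvation in RA, and 15 and 11 for the interaction, beside 6.7%, 19.6%, 9.03% and 6.1% of all genes. Leaving out 1 sample gave 4 to 8 collagen calls and 4 to 13 helper calls in normal medium, 22 to 23 and 47 to 51 under starvation, 25 to 26 and 49 to 51 in WT, 17 to 20 and 42 to 45 in RA, and 22 and 43 to 47 for the interaction; without replicate 1 of WT in normal medium there were 5 helper calls and without replicate 2 there were 4.

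With the replicate block, collagen calls were 9, 23, 26, 19 and 22 and helper calls 10, 51, 50, 44 and 48 in the 5 contrasts. Over all 16232 genes the block gave 2059, 10494, 12922, 11406 and 8578 calls, against 1563, 10211, 12756, 11157 and 8207 without it. Leaving out 1 sample also moved the number of calls over all genes in normal medium. Replicate numbers are shared, but deviations of samples with the same number correlated at -0.00764 to 0.157 between groups, so the numbers were not taken to pair the samples. Summed levels, as log2 starved over normal, moved by more than the replicate spread in these cases: all collagens in WT to -1.71 with the plain column total and -1.73 by coding length from -1.64, and in RA to -0.72 by coding length from -0.69; fibrillar genes in WT to -2.61 and -2.57 from -2.53, and in RA to -1.13 by coding length and -1.12 by median-ratio scaling; basement membrane genes in WT to -0.19 with the plain column total from -0.12; other collagens in WT to -1.70 by both. Of the collagen values by gene, 2449 kept their side of the threshold, 93 lost and 22 gained a call. Of the calls in normal medium, those of Col12a1, Col27a1 and Col8a1 were also lost with no filter and with no trend. Those of Col3a1 and Col6a3 were lost with no trend, and that of Col27a1 at pseudocounts of 0.1 and 0.5. On recovered reads edgeR called 1555, 10194, 12705, 11114 and 8096 of all genes in the 5 contrasts, in the order normal medium, starvation, WT, RA and interaction. The causes were not tested. Depth limits the genes under a value of 1, and 2 samples a group limit the spread.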
